A study of Homo sapiens with 21 samples.

Results

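The 10 genes described here regulate mTORC1, the growth-controlling kinase complex, and most of them report amino acid supply to it: SESN1, SESN2, SESN3, CASTOR1, RRAGC, RRAGD, FLCN, DDIT4, TSC2 and DEPTOR. They were chosen by symbol, and 11 of the 66738 rows of the gene count table carried one of these symbols, because SESN2 is listed a second time on an alternate contig. The cells were RS4;11, an established line of B-cell precursor acute lymphoblastic leukaemia with a KMT2A-AFF1 fusion, kept for 24 h in 1 of 3 media. One medium lacked asparagine and held 10 µM ferric nitrate together with 0.75 µM of the iron carrier hinokitiol (-Asn+Fe), one only lacked asparagine (-Asn), and one was complete (+Asn). There were 3 RNA libraries and 3 ChIP libraries of H3K4me3, a histone mark of active promoters, per medium. No group analysed here received the iron and hinokitiol with asparagine present, so their effect apart from starvation was not analysed here. Neither was given without the other, so effects of iron and of hinokitiol cannot be told apart. All groups are 1 cell line.

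mTORC1 is active at the lysosome when amino acids are plentiful. There the Rag GTPases (RRAGA or RRAGB paired with RRAGC or RRAGD) recruit it, and RHEB activates it. GATOR1 switches the Rag GTPases off, GATOR2 restrains GATOR1, and the sestrins and CASTOR1 bind GATOR2. SESN1 and SESN2 do so when leucine is short, and CASTOR1 when arginine is short. FLCN acts on RRAGC and RRAGD as a GTPase-activating protein, DDIT4 restrains mTORC1 through the TSC complex, TSC2 is the subunit of that complex that inactivates RHEB, and DEPTOR binds mTOR itself.

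Totals of 29362707 to 42478518 counts were reached by the RNA libraries. Library 1 of -Asn stood apart: comparing gene counts by chi-square, per degree of freedom, gave 42.2 and 46.5 between it and the other 2 of its medium, and 6.32 between those 2. RNA calls of single members that turn on this -Asn library are given with and without it. Values of single other pathway genes, of role medians and of similar patterns are given with it only. Library 1 of +Asn also lay further from the other 2 of its medium than those 2 from each other, at lower chi-square values. All 10 precursor B cell markers averaged at least 1 CPM (counts scaled to a common library size with TMM factors, which correct for library composition), with summed levels of 2265 to 2347 CPM in -Asn+Fe, 2516 to 2604 in -Asn and 2623 to 2669 in +Asn. Single markers went opposite ways: RAG1 averaged 80.1 CPM in -Asn+Fe, 63.6 in -Asn and 282 in +Asn, while PAX5 averaged 1157 CPM in -Asn+Fe, 1311 in -Asn and 967 in +Asn. Of the T and NK cell markers 1 of 5 averaged over 1 CPM (NKG7), of the monocyte and granulocyte markers 1 of 5 (CSF1R), and of the erythroid markers 0 of 4. The T and NK list summed to 23.1 to 32.55 CPM in -Asn+Fe, 25.3 to 34.7 in -Asn and 20.2 to 26.6 in +Asn. NKG7 alone averaged 26.9, 29.6 and 22.7 CPM in these media. The monocyte and granulocyte list summed to 13.8 to 14.8 CPM in -Asn+Fe, 16.9 to 17.8 in -Asn and 10.4 to 10.8 in +Asn. The part of either list in the results below was not tested. Nothing in the labels tells if replicates were separate cultures. The p-values thus rest on the spread between libraries, and that spread may be technical.

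Promoter sequences are shown for the 5 genes whose H3K4me3 peak was wider without asparagine, and for TSC2, the one member with matches to 2 of the motifs searched. RefSeq promoters were found for 8 of the 10 genes, in 11 windows since SESN1 and TSC2 have several starts. Each sequence is the 250 bases before the RefSeq start in GRCh38.p14, 5′ to 3′ on the gene's strand. Capitals mark matches on either strand to TGATGNAA, a core of C/EBP-ATF response elements such as those bound by ATF4, or to TCACGTG, an E-box of the kind bound by MITF and TFE factors. GTAAACA, the FOXO core, was also searched, on both strands. Among 35116 such windows of all RefSeq promoters, 3.14% held TGATGNAA, 3.31% held TCACGTG and 2.98% held GTAAACA.
SESN2, chr1:28259268-28259517, plus strand: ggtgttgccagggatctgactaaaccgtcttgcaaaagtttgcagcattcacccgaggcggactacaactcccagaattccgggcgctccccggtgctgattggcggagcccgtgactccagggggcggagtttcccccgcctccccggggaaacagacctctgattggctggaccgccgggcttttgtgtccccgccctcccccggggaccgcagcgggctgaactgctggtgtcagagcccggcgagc
CASTOR1, chr22:30289506-30289755, minus strand: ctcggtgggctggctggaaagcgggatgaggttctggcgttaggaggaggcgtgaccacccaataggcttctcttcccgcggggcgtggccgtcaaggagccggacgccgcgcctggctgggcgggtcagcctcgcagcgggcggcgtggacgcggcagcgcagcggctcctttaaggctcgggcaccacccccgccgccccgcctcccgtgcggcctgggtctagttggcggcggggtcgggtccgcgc
RRAGC, chr1:38859773-38860022, minus strand: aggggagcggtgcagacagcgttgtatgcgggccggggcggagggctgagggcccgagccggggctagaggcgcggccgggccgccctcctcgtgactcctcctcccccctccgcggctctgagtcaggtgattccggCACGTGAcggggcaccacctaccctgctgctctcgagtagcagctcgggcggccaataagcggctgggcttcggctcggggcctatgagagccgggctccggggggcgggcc
FLCN, chr17:17237169-17237418, minus strand: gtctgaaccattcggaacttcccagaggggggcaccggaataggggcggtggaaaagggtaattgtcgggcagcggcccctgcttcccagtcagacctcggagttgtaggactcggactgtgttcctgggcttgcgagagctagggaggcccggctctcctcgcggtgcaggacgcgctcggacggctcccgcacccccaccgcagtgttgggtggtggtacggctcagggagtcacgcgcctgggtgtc
DDIT4, chr10:72273674-72273923, plus strand: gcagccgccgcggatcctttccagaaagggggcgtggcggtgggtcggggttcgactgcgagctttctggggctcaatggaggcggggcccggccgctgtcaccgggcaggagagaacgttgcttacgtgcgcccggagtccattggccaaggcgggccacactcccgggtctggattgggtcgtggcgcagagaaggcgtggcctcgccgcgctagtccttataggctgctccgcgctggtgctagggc
TSC2, chr16:2047735-2047984, plus strand: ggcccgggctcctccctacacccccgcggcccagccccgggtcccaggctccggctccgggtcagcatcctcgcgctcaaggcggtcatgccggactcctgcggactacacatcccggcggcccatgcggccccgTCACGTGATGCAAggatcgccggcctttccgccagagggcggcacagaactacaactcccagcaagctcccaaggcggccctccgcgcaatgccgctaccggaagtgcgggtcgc
RRAGC held one match to TCACGTG, on the reverse strand, from 112 to 106 bases before its start. TSC2 held TCACGTG on both strands, overlapping in the same palindrome from 115 to 108 bases before the start, and TGATGNAA from 110 to 103, which overlaps it. No window of the other genes held any of the 3 motifs, which says only that these letters are not in those windows.

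The leading RNA change without asparagine was in DDIT4, FLCN and RRAGC. In -Asn against +Asn, edgeR's quasi-likelihood test called 4 members higher (DDIT4, FLCN, RRAGC, DEPTOR) and 1 lower (SESN1) of the 8 that passed the low-count filter. SESN2 and CASTOR1 did not pass it. Over all 17939 genes tested, 31.0% were called higher and 30.2% lower, so a call alone does not set a member apart. The median log2 change was 0.62 over the 8 members and 0.042 over all genes. The samples are bulk RNA, so a change in the share of cells with a transcript and a change per cell cannot be told apart. A call here means a Benjamini-Hochberg adjusted p under 0.05 over all genes. With iron and hinokitiol, 3 members (SESN1, RRAGD, FLCN) were called higher and 0 lower in -Asn+Fe against -Asn. There the same test called 14.0% of all genes higher and 16.8% lower. In -Asn+Fe against +Asn 7 members were called higher and 0 lower, every tested member but TSC2, with 32.9% of all genes called higher and 31.9% lower. The member medians in these 2 comparisons were 0.25 and 0.79, beside -0.0078 and 0.053 over all genes. The 3 comparisons share libraries in pairs, so their values are given side by side and not as separate evidence.

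**Figure D1:**
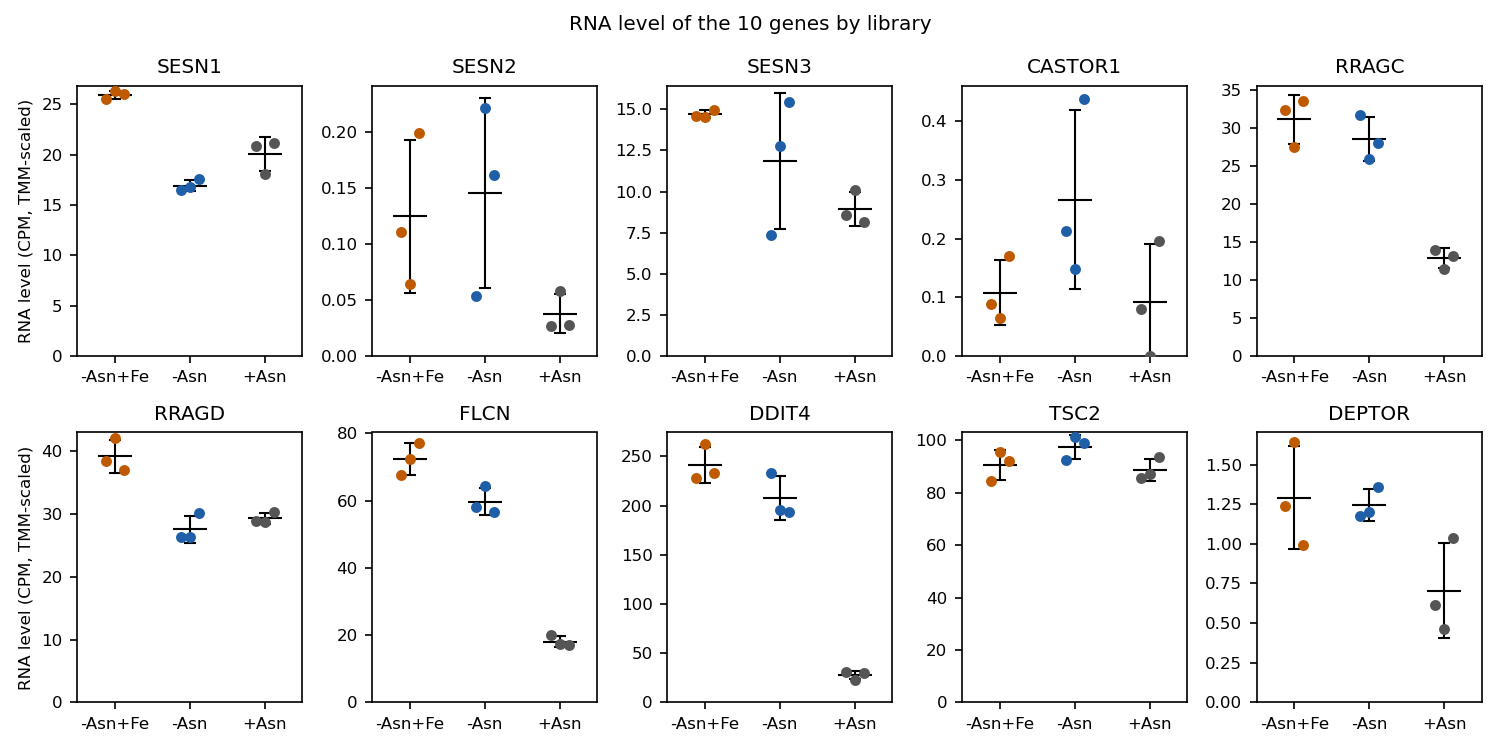
RNA level in CPM of each gene (y axis, from 0, its own scale per panel) in the 3 libraries of -Asn+Fe, -Asn and +Asn; points are libraries, the dash is the mean and the bar the SD. DDIT4, FLCN and RRAGC sit above +Asn in every library without asparagine, and SESN2 and CASTOR1 stay under 0.5 CPM in all 9.

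Among the sensors, SESN1, a sestrin that p53 induces, had 25.5, 26.3 and 26.02 CPM in -Asn+Fe, 16.4, 16.8 and 17.6 CPM in -Asn, and 20.8, 18.1 and 21.2 CPM in +Asn. The -Asn libraries were the lowest and the -Asn+Fe libraries the highest, with no overlap between any 2 groups. In -Asn+Fe against -Asn it rose by 0.62 on the log2 scale (SE 0.0836, edgeR adjusted p = 3.72e-05), and against +Asn by 0.37 (SE 0.0833, adjusted p = 0.000896). The call against +Asn was lost when tested against a 1.2-fold change (adjusted p = 0.0624). The fall in -Asn against +Asn was small, -0.24 (SE 0.0843, edgeR adjusted p = 0.0194). That call was lost with library totals in place of TMM (adjusted p = 0.727), with a stricter low-count filter (0.165) and against a 1.2-fold change (0.455). It was also lost without replicate 1 or 3 of +Asn or replicate 2 of -Asn (0.0613, 0.0631 and 0.0590).

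SESN3, a sestrin that FOXO factors induce, had 14.6, 14.5 and 15.0 CPM in -Asn+Fe, 7.34, 12.7 and 15.5 CPM in -Asn, and 8.59, 10.1 and 8.12 CPM in +Asn. The 3 -Asn+Fe libraries lay close together, and 1 -Asn library, replicate 1, lay below every +Asn library. SESN3 rose in -Asn+Fe against +Asn by 0.72 (SE 0.192, edgeR adjusted p = 0.00424). In -Asn+Fe against -Asn its change of 0.31 was not called (edgeR adjusted p = 0.238). Without replicate 3 of -Asn that change was 0.56 and was called (adjusted p = 0.0260), and over all left-out libraries it ran from 0.069 to 0.56. In -Asn against +Asn the log2 change was 0.41 (adjusted p = 0.0774), and without that -Asn library it was 0.66 (adjusted p = 2.09e-05). Without replicate 3 of -Asn it was 0.17 (adjusted p = 0.442). It was called with library totals (0.62, adjusted p = 0.0115), with the stricter filter (0.53, adjusted p = 0.0355) and with no filter (0.41, adjusted p = 0.00468).

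SESN2, the leucine sensor, is known as a target of the stress factor ATF4. It had 5, 2 and 7 counts in -Asn+Fe, 2, 9 and 7 counts in -Asn, and 1, 2 and 1 counts in +Asn. Over each group that is 14, 18 and 4 counts, and the CPM ratio of -Asn over +Asn was 3.99, with a counting interval of 1.31 to 16.2. Without replicate 2 of -Asn it was 3.0003 (0.837 to 13.3). These counts are low beside a promoter that carried an H3K4me3 peak in all 9 libraries, described below. The gene is also listed on the alternate contig KZ208904.1, where it had 0 counts. Of protein-coding genes with a promoter peak in all 9 libraries, 358 of 467 with such a second copy in the table (76.7%) averaged under 1 CPM, against 1092 of 10363 without one (10.5%). How reads that map to several places were counted is not given in the sources used here, and its part in the SESN2 count was not tested. No other fold change is given for SESN2 RNA.

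CASTOR1, the arginine sensor, had 4, 2 and 6 counts in -Asn+Fe, 8, 6 and 19 counts in -Asn, and 3, 0 and 7 counts in +Asn. The groups overlap in every comparison. The CPM ratio of -Asn over +Asn was 2.93 with a counting interval of 1.41 to 6.66, and that of -Asn+Fe over -Asn was 0.397, with an interval of 0.187 to 0.788. Replicate 3 of -Asn gave 19 of the 33 counts of its medium, and without it the ratios were 1.93 (0.798 to 4.86) and 0.601 (0.254 to 1.40). Without replicate 3 of +Asn the first was 6.52 (2.05 to 33.3). These left-out values were added after the data were seen. Of its exon length 46.0% is shared with AC004997.1 on the same strand, which had 1 count in all, and its part in the low count was not tested. These intervals cover counting error only, at a level of 95%.

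Among the Rag GTPases, RRAGC had 32.3, 27.4 and 33.5 CPM in -Asn+Fe, 31.7, 25.9 and 27.9 CPM in -Asn, and 14.0, 11.5 and 13.1 CPM in +Asn. Every library without asparagine was above every +Asn library, and the 2 groups without it overlapped. RRAGC rose 2.22-fold in -Asn against +Asn (log2 1.15, SE 0.105, edgeR adjusted p = 7.02e-08) and 2.42-fold in -Asn+Fe against +Asn (log2 1.27, adjusted p = 1.53e-08). The change in -Asn+Fe against -Asn was 0.13 (adjusted p = 0.366), with a 95% interval of -0.086 to 0.34. RRAGC shares 23.1% of its exon length with AL139260.2 on the same strand, which had 0 counts against 8337.

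RRAGD, which can take the place of RRAGC beside RRAGA or RRAGB, had 38.4, 42.2 and 37.0 CPM in -Asn+Fe, 26.3, 26.3 and 30.1 CPM in -Asn, and 29.0, 28.7 and 30.3 CPM in +Asn. Its -Asn+Fe libraries were above all others, and its -Asn and +Asn libraries overlapped. It rose in -Asn+Fe against -Asn by 0.51 (SE 0.0808, edgeR adjusted p = 0.000184) and against +Asn by 0.42 (adjusted p = 0.000248). In -Asn against +Asn the value was -0.09 (adjusted p = 0.369, 95% interval -0.26 to 0.085), and its sign turned with library totals (0.12) or a stricter filter (0.031).

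FLCN, which acts on both of them, had 67.5, 72.2 and 77.2 CPM in -Asn+Fe, 58.2, 64.2 and 56.7 CPM in -Asn, and 19.96, 17.2 and 17.0 CPM in +Asn. All 3 groups were apart. FLCN rose 3.30-fold in -Asn against +Asn (log2 1.72, SE 0.0857, edgeR adjusted p = 3.61e-11) and 3.998-fold in -Asn+Fe against +Asn (log2 1.999, adjusted p = 3.74e-12). The further rise in -Asn+Fe against -Asn was 1.21-fold (log2 0.28, SE 0.0806, adjusted p = 0.0159). This call was lost without replicate 3 of -Asn+Fe (adjusted p = 0.0906) and when tested against a 1.2-fold change (adjusted p = 0.538). Of the exon length of FLCN 11.9% is shared with AC055811.2 on the same strand, which had 133 counts against 17216 for FLCN.

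Among the inhibitors, DDIT4, a stress-induced gene also called REDD1, had 228, 262 and 234 CPM in -Asn+Fe, 234, 196 and 194 CPM in -Asn, and 31.0, 23.1 and 30.0 CPM in +Asn. Every library without asparagine was far above +Asn. It rose 7.41-fold in -Asn against +Asn (log2 2.89, SE 0.110, edgeR adjusted p = 2.04e-12), and 8.61-fold in -Asn+Fe against +Asn (log2 3.11, adjusted p = 5.44e-13). The value of -Asn+Fe against -Asn was 0.22 (adjusted p = 0.117), and 0.32 without the -Asn library that stood apart (adjusted p = 0.0146). DDIT4 shares 41.2% of its exon length with the antisense gene DDIT4-AS1, which had 26 counts against 54876.

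TSC2 had 84.4, 95.6 and 92.1 CPM in -Asn+Fe, 92.3, 101 and 99.1 CPM in -Asn, and 85.6, 87.2 and 93.5 CPM in +Asn. The groups overlapped. The log2 change in -Asn against +Asn was 0.14 (SE 0.0708, edgeR adjusted p = 0.109, 95% interval -0.014 to 0.29), and it was called at 0.34 with library totals (adjusted p = 0.000717) at 0.25 with the stricter filter (adjusted p = 0.00512), and at 0.17 without the -Asn library that stood apart (adjusted p = 0.0175). In the other 2 comparisons it was -0.11 (adjusted p = 0.278, -Asn+Fe against -Asn) and 0.03 (adjusted p = 0.729, -Asn+Fe against +Asn). The second was also called with library totals (0.29, adjusted p = 0.00277), where all 8 tested members were called higher, and with the stricter filter (0.20, adjusted p = 0.0194). TSC2 shares 4.09% of its exon length with PKD1 on the other strand, which had 27356 counts against 31459 for TSC2. The strand setting of the counts is not given, and the part of this overlap in the TSC2 values was not tested.

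DEPTOR was low, with 1.24, 1.64 and 0.994 CPM in -Asn+Fe, 1.17, 1.204 and 1.36 CPM in -Asn, and 0.616, 0.461 and 1.04 CPM in +Asn, from 16 to 59 counts a library. The -Asn libraries were all above +Asn, while -Asn+Fe overlapped with it. DEPTOR rose in -Asn against +Asn by 0.82 (SE 0.295, edgeR adjusted p = 0.0234). That call was lost with DESeq2 (adjusted p = 0.0570) and without replicate 1 or 2 of +Asn or replicate 3 of -Asn (0.0847, 0.125 and 0.0707). In -Asn+Fe against +Asn it rose by 0.86 (adjusted p = 0.0177), a call lost without replicate 1 or 2 of +Asn or replicate 2 of -Asn+Fe (0.0635, 0.0941 and 0.0722).

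**Figure D2:**
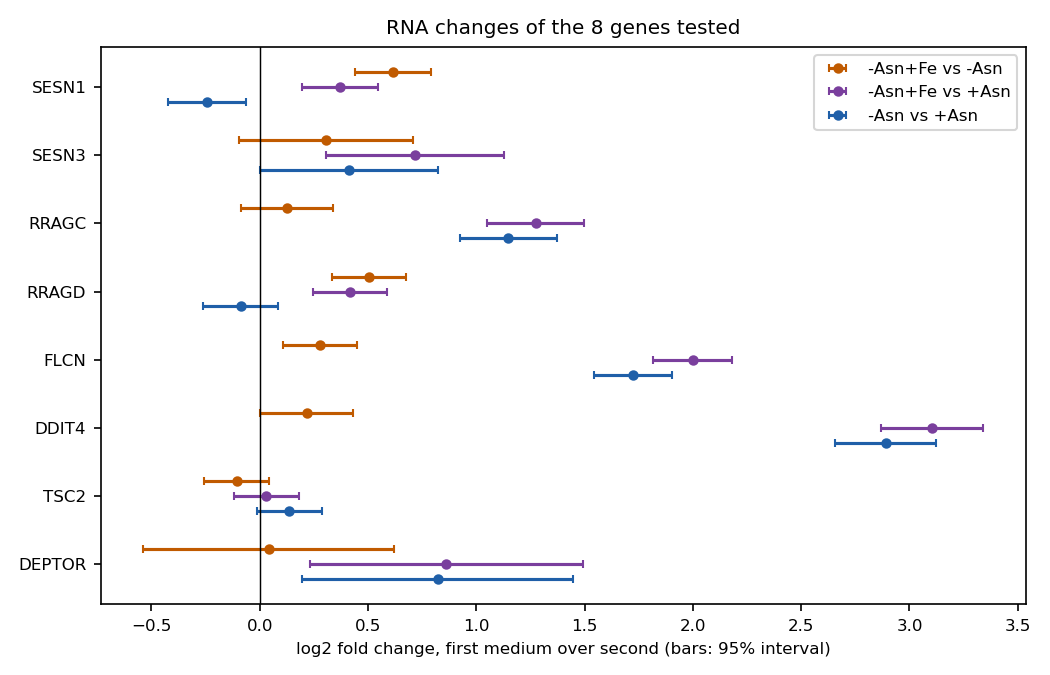
Log2 fold change of the 8 members tested (x axis, first medium over second) in each comparison, with 95% intervals from the edgeR fit. DDIT4 and FLCN lie far to the right in the 2 comparisons with +Asn (2.89 and 1.72 in -Asn), while SESN1 and RRAGD are the largest in -Asn+Fe against -Asn (0.62 and 0.51).

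Levels per kb of exon rank the members within a medium. The exon length is that of all annotated exons of a gene, 2054 bp for DDIT4 and 19128 bp for TSC2. The order between genes thus depends on the annotation, and lengths of single transcripts were not used. In -Asn+Fe DDIT4 averaged 118 CPM per kb, with RRAGD (7.73) and FLCN (7.39) next, and those 2 were within their spread. In -Asn DDIT4 averaged 101 CPM per kb, and FLCN (6.10), RRAGC (5.58), RRAGD (5.44) and TSC2 (5.10) followed with neighbours overlapping. In +Asn DDIT4 averaged 13.6 CPM per kb, ahead of RRAGD (5.78), TSC2 (4.64), SESN1 (3.91), RRAGC (2.51) and FLCN (1.85), and these neighbours did not overlap. FLCN was thus 6th of the members in +Asn and 2nd in -Asn.

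For the 3 members called with a log2 change of at least 1, the genes of most similar pattern were taken as those with the smallest root mean square difference of centred log2 CPM over the 9 libraries, among 10098 genes. For DDIT4 they were WIPI1 (0.132), HIST1H2AC (0.153) and KDM6B (0.157). For FLCN they were PSAT1 (0.109), an enzyme of serine synthesis, TGFA (0.115) and TMEM9B-AS1 (0.116). For RRAGC they were SHLD1 (0.0736), CHST2 (0.0866) and PLPP5 (0.0951). PSAT1 averaged 341 CPM in -Asn+Fe, 280 CPM in -Asn and 94.7 CPM in +Asn.

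Of 65 other genes of the pathway, listed in 9 roles, 64 were tested. In -Asn against +Asn 15 were called higher and 25 lower, in -Asn+Fe against -Asn 10 and 10, and in -Asn+Fe against +Asn 15 and 29. Of all genes tested, 31.0% were called higher and 30.2% lower in -Asn against +Asn, 14.0% and 16.8% in -Asn+Fe against -Asn, and 32.9% and 31.9% in -Asn+Fe against +Asn. The pathway genes' median log2 changes were -0.10, -0.055 and -0.17. Of the subunits of the mTOR complexes and their assembly factors, 0 of 10 rose and 8 fell in -Asn against +Asn, with a median of -0.62. They included PRR5L, a subunit of mTORC2, at 1.83 ± 0.194 CPM in -Asn against 10.8 ± 0.637 CPM in +Asn (SD, n = 3 each), TTI1, an assembly factor, at -1.18, and PRR5 at -1.01. The 2 not called were RPTOR and AKT1S1, subunits of mTORC1, at -0.032 and -0.14 (edgeR adjusted p = 0.706 and 0.164). MTOR itself was called lower, at -0.66. With library totals 7 of these 10 still fell and 1 rose. In -Asn+Fe against -Asn 3 of the 10 were called higher and 2 lower, and in -Asn+Fe against +Asn 1 and 8. The 3 were RICTOR (0.51), PRR5 (0.50) and AKT1S1 (0.42).

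**Figure D3:**
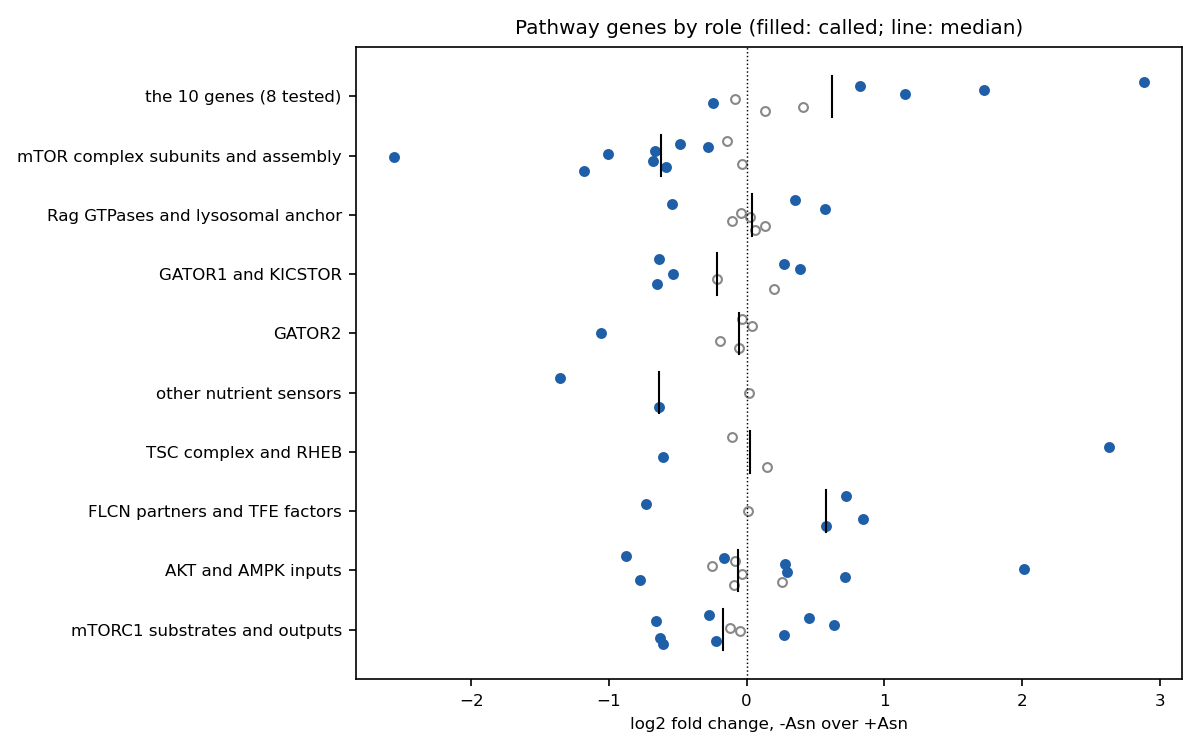
Log2 fold change in -Asn over +Asn (x axis) of the members and of the other pathway genes by role; filled points are called and black lines are medians. The mTOR complex genes lie left of 0 (8 of 10 called lower), and the FLCN partners and TFE factors lie mostly right (3 of 5 called higher).

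Of the FLCN partners and the TFE factors, which are transcription factors of lysosomal genes that FLCN and the Rag GTPases control, 3 of 5 rose and 1 fell in -Asn against +Asn. TFE3 averaged 76.3 ± 2.32 CPM in -Asn+Fe, 38.5 ± 1.06 CPM in -Asn and 21.4 ± 1.29 CPM in +Asn (SD, n = 3 each). All groups were apart, and TFE3 rose by 0.85 in -Asn against +Asn (edgeR adjusted p = 2.95e-08) and by 0.99 in -Asn+Fe against -Asn (adjusted p = 2.57e-08). FNIP1, a FLCN binding partner, rose in both too, by 0.72 and 0.50, while its paralogue FNIP2 fell by 0.73 on the log2 scale in -Asn against +Asn and rose by 0.32 in -Asn+Fe against -Asn. TFEB rose by 0.72 in -Asn+Fe against +Asn. Among the TSC complex and RHEB genes, RHEBL1, a RHEB-like GTPase, averaged 23.5 ± 1.504 CPM in -Asn+Fe, 21.7 ± 3.68 CPM in -Asn and 3.49 ± 0.869 CPM in +Asn (SD, n = 3 each). It rose 6.21-fold in -Asn against +Asn (edgeR adjusted p = 3.04e-10), and TBC1D7, a TSC complex subunit, fell by 0.61 on the log2 scale.

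Counts near those shares (31.0% and 30.2% in -Asn against +Asn) are no result about a role, and those of GATOR1, AKT and AMPK lie near them. Of GATOR1 and its anchor KICSTOR, 2 of 7 rose and 3 fell in -Asn against +Asn: NPRL3, DEPDC5 and KPTN fell by 0.65, 0.64 and 0.53 on the log2 scale. NPRL3 and DEPDC5 fell again in -Asn+Fe against -Asn, by 0.36 and 0.35. ITFG2 rose by 0.27 in -Asn against +Asn and fell by 0.35 in -Asn+Fe against -Asn. Of GATOR2 only SEH1L of 5 was called in -Asn against +Asn, at -1.06. Of the other nutrient sensors CASTOR2, a paralogue of CASTOR1, and SAMTOR, which senses S-adenosylmethionine, fell by 1.35 and 0.64. Among the other Rag GTPases and their lysosomal anchor LAMTOR3 and LAMTOR1 rose by 0.57 and 0.35 and LAMTOR2 fell by 0.54, of 8 tested. Among AKT and AMPK genes 4 rose and 3 fell of 12, among them AKT1 at -0.88 and PRKAG1 at 0.71, and among substrates and outputs 3 rose and 5 fell of 10, among them GRB10 at 0.64 and EIF4EBP2 at -0.66. The medians of the GATOR2, AKT and AMPK, and output lists in -Asn against +Asn changed sign with library totals (0.151, 0.146 and 0.032), and those of the other role lists did not.

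At the 5′ ends, all 10 members carried an H3K4me3 region in 3 of 3 libraries of each medium, SESN2 and CASTOR1 included. The values are the positions of peaks called in each library, so the width of a peak was compared and not its height. In -Asn against +Asn, limma called 5 of 10 member regions wider and 0 narrower, over a background of 14.6% wider and 1.45% narrower among 13883 regions present in all 9 libraries. Widths over all regions shifted by a median of 0.086 on the log2 scale. In -Asn+Fe against +Asn the same 5 were called wider, over 11.7% wider and 1.92% narrower, with a median shift of 0.067. In -Asn+Fe against -Asn limma called 0.0% wider and 0.0% narrower, with 1042 of 13883 regions (7.51%) at an unadjusted p under 0.05, and no member was called. The number of regions called per library was 15891 to 17206 in -Asn+Fe, 15554 to 17448 in -Asn and 14741 to 15230 in +Asn, so the libraries without asparagine had more regions, and their part in the wider peaks was not tested.

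**Figure D4:**
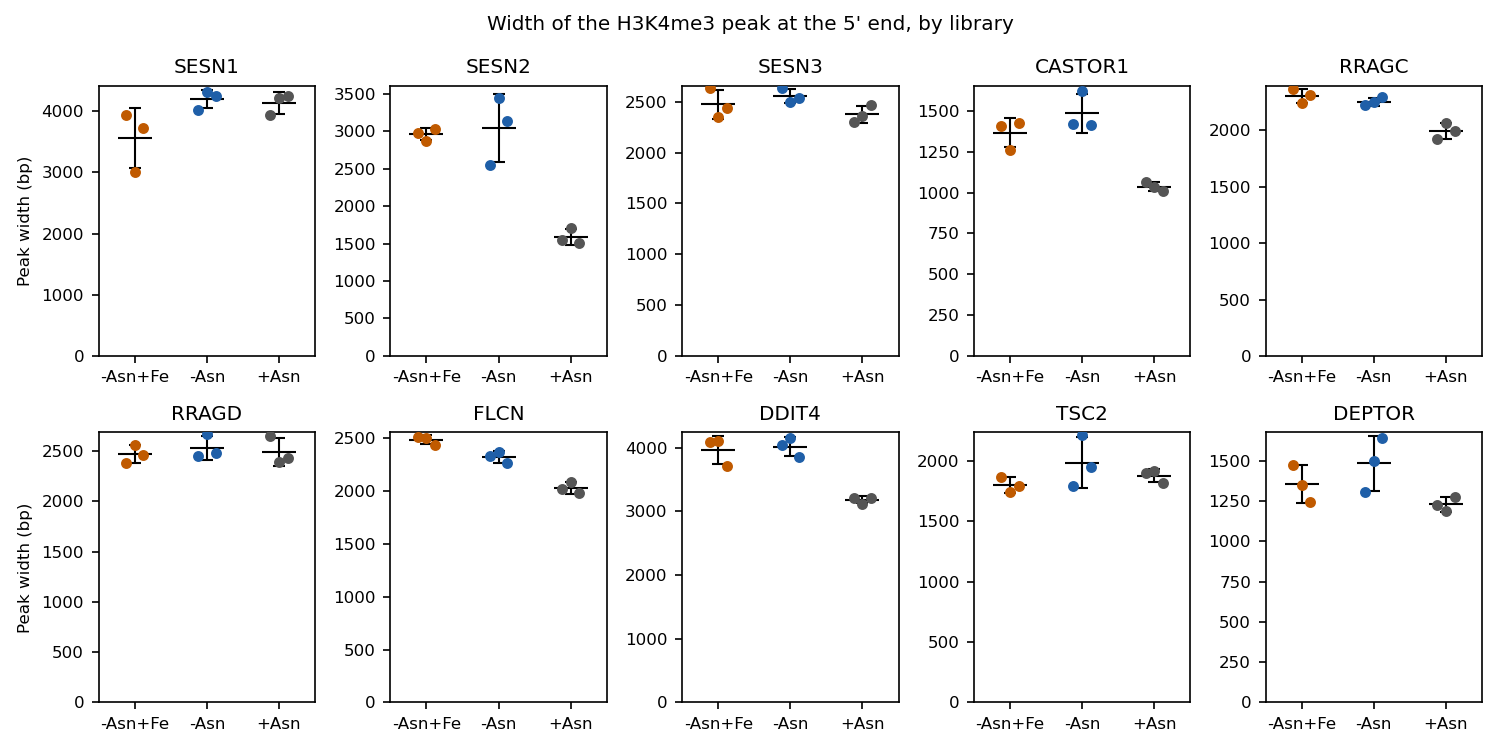
Width in bp of the H3K4me3 peak at the 5′ end of each member (y axis, from 0) in the 3 libraries of -Asn+Fe, -Asn and +Asn; points are libraries, the dash is the mean and the bar the SD. The SESN2 peak is 2546 to 3452 bp wide in every library without asparagine and 1505 to 1713 bp in +Asn.

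The SESN2 peak changed most. The part of the gene's second copy, on the alternate contig, in the widths was not tested. The peak measured 2978, 2872 and 3028 bp in -Asn+Fe, 2546, 3452 and 3137 bp in -Asn, and 1551, 1713 and 1505 bp in +Asn. The narrowest peak without asparagine (2546 bp) exceeded the widest in +Asn (1713 bp). It was wider by 0.93 on the log2 scale in -Asn against +Asn (SE 0.0955, limma adjusted p = 0.000235) and by 0.90 in -Asn+Fe against +Asn (adjusted p = 0.000310). The region is chr1:28258727-28262531 in hg38, and 80.8% of the regions present in all 9 libraries were narrower on average over the 9. In +Asn alone the peak was near the median width of those regions, 1665, 1672 and 1619 bp in replicates 1 to 3. The extension lay mostly within the gene: the peak reached 2758 ± 275 bp past the 5′ end in -Asn+Fe, 2574 ± 211 bp in -Asn and 1426 ± 66.1 bp in +Asn (SD, n = 3 each). Upstream it reached 306 ± 220 bp in -Asn+Fe, 571 ± 333 bp in -Asn and 163 ± 47.5 bp in +Asn (SD, n = 3 each), and 2 -Asn+Fe libraries and 1 -Asn library lay within the +Asn range of 115 to 210 bp.

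The CASTOR1 peak, in the region chr22:30288714-30290340, measured 1410, 1263 and 1426 bp in -Asn+Fe, 1420, 1622 and 1411 bp in -Asn, and 1066, 1033 and 1012 bp in +Asn. It was wider by 0.51 in -Asn (SE 0.0779, limma adjusted p = 0.00245) and by 0.40 in -Asn+Fe (adjusted p = 0.00984), each against +Asn. Here the extension lay upstream: 517 ± 65.5 bp before the 5′ end in -Asn+Fe, 616 ± 85.4 bp in -Asn and 197 ± 4.60 bp in +Asn (SD, n = 3 each). The reach into the gene was 849 ± 58.7, 867 ± 37.6 and 839 ± 31.8 bp in -Asn+Fe, -Asn and +Asn.

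The DDIT4 peak, in the region chr10:72272365-72276634, measured 4083, 4102 and 3709 bp in -Asn+Fe, 4039, 4152 and 3862 bp in -Asn, and 3214, 3121 and 3213 bp in +Asn. It was wider by 0.34 in -Asn (limma adjusted p = 0.00142) and by 0.32 in -Asn+Fe (adjusted p = 0.00208), each against +Asn. It passed the 3′ end of this short gene in every library without asparagine and ended before it in every +Asn library. The 5′ end of DDIT4-AS1 lies in the same region.

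The FLCN and RRAGC regions, chr17:17235799-17238400 and chr1:38858383-38860749, were called with smaller log2 changes. FLCN measured 2514, 2505 and 2438 bp in -Asn+Fe, 2332, 2372 and 2267 bp in -Asn, and 2020, 2088 and 1980 bp in +Asn, and all 3 groups were apart. Its log2 width change was 0.20 in -Asn (limma adjusted p = 0.0106) and 0.29 in -Asn+Fe (adjusted p = 0.00138). The added width was within the gene, with a reach of 1347 ± 67.4 bp in -Asn+Fe, 1148 ± 35.4 bp in -Asn and 894 ± 91.9 bp in +Asn (SD, n = 3 each). RRAGC measured 2367, 2244 and 2318 bp in -Asn+Fe, 2223, 2248 and 2295 bp in -Asn, and 1920, 2069 and 1996 bp in +Asn. Its change in -Asn was 0.18 (adjusted p = 0.0220), a call lost without replicate 1 or 3 of +Asn or replicate 2 or 3 of -Asn (0.0748, 0.0626, 0.0550 and 0.0792), and 0.21 in -Asn+Fe (adjusted p = 0.0120), each against +Asn. Centring each library on its median width ended the -Asn calls of FLCN and RRAGC (adjusted p = 0.111 and 0.202), and left those of SESN2, CASTOR1 and DDIT4. Neither region is of 1 gene: the 5′ end of AL139260.1, on the other strand, lies 140 bp from that of RRAGC, and those of AC055811.2 and AC055811.3 lie 3 and 1070 bp from that of FLCN.

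**Figure D5:**
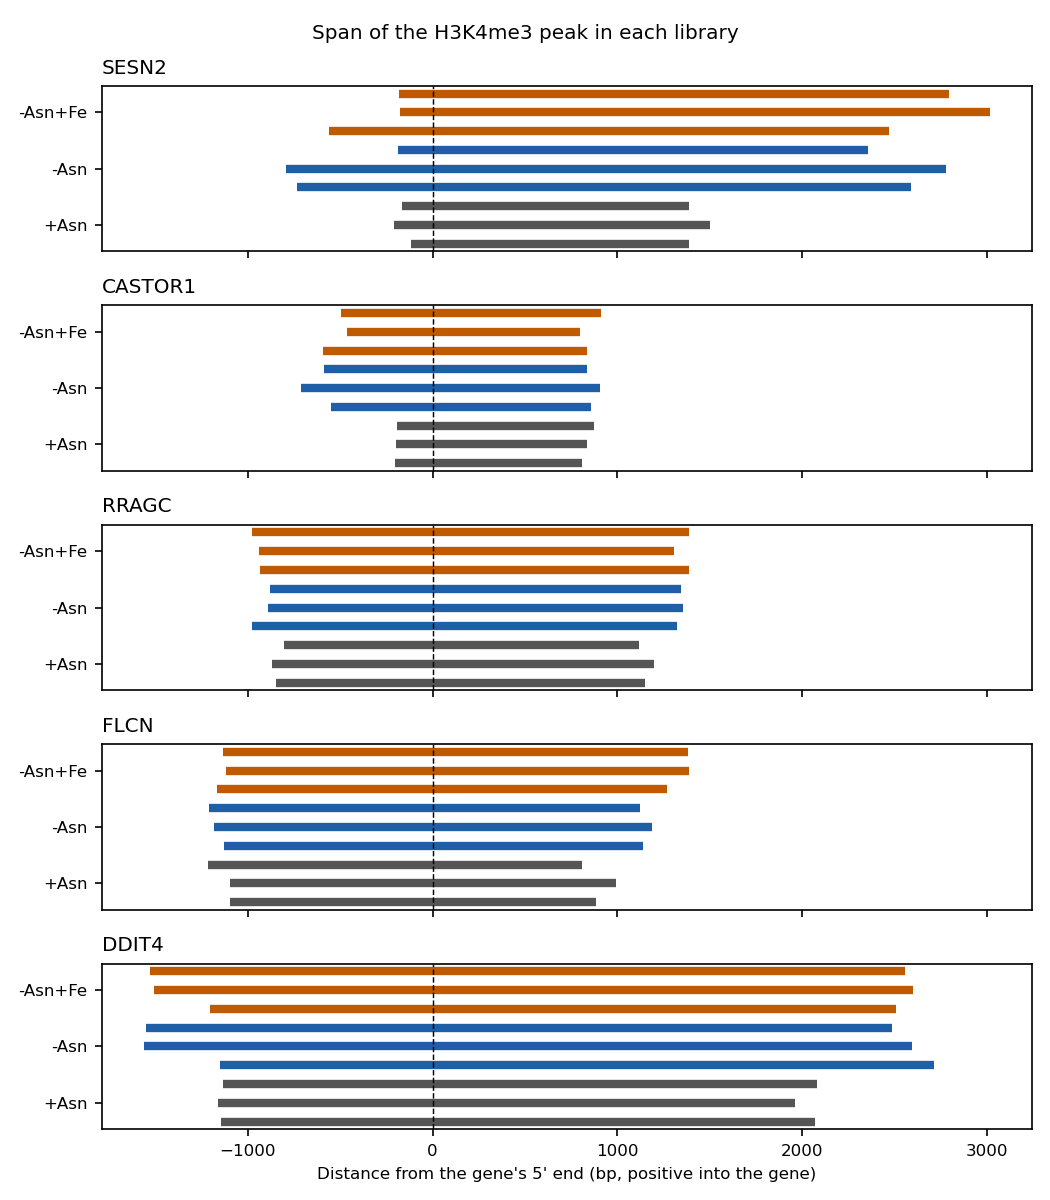
Outer span of the H3K4me3 peak in each library, from its upstream to its downstream edge (x axis, distance in bp from the 5′ end of the gene, positive into the gene), for the 5 members called wider. Without asparagine SESN2 and FLCN extend further into the gene, SESN2 in some libraries upstream too, and CASTOR1 extends upstream.

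The peaks of SESN1, SESN3, RRAGD, TSC2 and DEPTOR were not called in any comparison. Without replicate 1 of -Asn the DEPTOR region was called wider in -Asn against +Asn (0.35, limma adjusted p = 0.0241), and centred on the library median the SESN1 region was called narrower in -Asn+Fe against +Asn (-0.29, adjusted p = 0.0225). The log2 changes of the 5 in -Asn against +Asn were 0.021, 0.11, 0.022, 0.075 and 0.26. SESN1 shares its region with CEP57L1 and TSC2 with NTHL1, whose 5′ ends lie 291 and 101 bp away, so those peaks cannot be given to 1 gene. SESN1 has a second region inside the gene, chr6:109008160-109010339, over the downstream RefSeq starts and called in all 9 libraries. It measured 1957 ± 144 bp in -Asn+Fe, 1917 ± 228 bp in -Asn and 1598 ± 42.6 bp in +Asn (SD, n = 3 each), and it was called wider in -Asn+Fe against +Asn (log2 0.29, limma adjusted p = 0.0460) but not in -Asn against +Asn (0.26, adjusted p = 0.0630). The region was looked at after its widths were seen.

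DDIT4 was called in both RNA and peak width in -Asn against +Asn, and so were FLCN and RRAGC, whose width calls end as given above. SESN2 had the largest log2 width change of the 10 and too few counts for a test of its RNA. SESN1 was called higher in RNA in -Asn+Fe against -Asn. Its promoter peak measured 3943, 3009 and 3730 bp in -Asn+Fe against 4029, 4311 and 4254 bp in -Asn, a change of -0.25 (limma adjusted p = 0.558).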

How the data were processed

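The authors deposited raw counts per gene. The submitters' processing notes list bcl2fastq, STAR 2.7.2a, featureCounts and Subread 1.6.5 for them, and the build hg38. Which strand setting was used, and how multi-mapping reads were treated, is not given in the sources used here. For the H3K4me3 table the notes list Bowtie2 2.4.4, then Picard 2.18.26, and MACS2 2.2.7.1. It holds positions of peaks per library in 19279 merged regions, with no read counts. Its lines have 13 fields under 12 names, so the 9 library columns were read as the last 9, and those called untreated as complete medium. Groups came from the labels.

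The RNA test was that of edgeR 4.0.16 (R 4.3.3), with TMM factors, the filterByExpr filter, and a robust quasi-likelihood fit of the 9 libraries together. Width is the length of a region that peaks of a library cover. For regions with a peak in all libraries, log2 widths were tested by limma 3.58.1 (trend). A Benjamini-Hochberg adjusted p under 0.05 was called. Member regions were those within 1 kb of a gene's outer 5′ end. Named pathway genes were up to 3 called per role and comparison, with the largest change and a mean of at least 1 CPM. For the mTOR complex list, MTOR and the uncalled RPTOR and AKT1S1 were also given in -Asn against +Asn. The fits were tested on simulated data. Alternatives for RNA were DESeq2 1.42.0, RLE factors, scaling to library totals, dropping or tightening the low-count filter, and a 1.2-fold minimum change. For widths they were outer spans, centring on the library median, a 500 bp minimum and a 2 kb window. A fit with the replicate number as a block, and fits without each library in turn, were run for both. Sequences and figures were made in Python 3.11.15 (pandas 2.3.3, numpy 2.4.6, matplotlib 3.10.9). The members, gene lists and tests were chosen with earlier results of these data known. In the name table, 60306 of the gene IDs were found.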

Additional observations from a re-analysis of the deposited data

How the results depend on the processing

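Counts of called members, pathway genes and regions kept within 1.5 times of the main count in 212 of 225 recomputations. The exceptions were as follows. Called members in -Asn against +Asn came to 3 to 7 over the libraries left out one at a time, and the 3 came without replicate 1 of +Asn, where SESN1 and DEPTOR were lost. Called pathway genes in -Asn+Fe against -Asn came to 12 to 21 with each library left out, the 12 without replicate 1 of -Asn+Fe, and to 4 against a 1.2-fold change. Calls over all genes came to 2323 in -Asn+Fe against -Asn with the 1.2-fold minimum, and to 7647 in -Asn+Fe against +Asn with the stricter filter, which tests fewer genes. Called member regions in -Asn against +Asn were 3 after centring on the library median. Width calls over all regions came to 1156 to 2699 in -Asn against +Asn, 0 to 1 in -Asn+Fe against -Asn and 934 to 2158 in -Asn+Fe against +Asn with each library left out. In -Asn against +Asn they were 1156 and 1171 without replicates 2 and 3 of -Asn and 1271 without replicate 3 of +Asn. In -Asn+Fe against +Asn they were 934 and 1085 without replicates 1 and 3 of -Asn+Fe and 1094 without replicate 3 of +Asn. The 1 region in -Asn+Fe against -Asn was called without replicate 1 of -Asn+Fe.

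Signs turned only for values near 0 that were not called. For RNA in -Asn against +Asn these were RRAGD with library totals (0.12) and the stricter filter (0.031). With a library left out, DEPTOR in -Asn+Fe against -Asn ran from -0.13 to 0.20 and TSC2 in -Asn+Fe against +Asn from -0.0071 to 0.089. For widths centred on the library median in -Asn against +Asn these were SESN1 (-0.068), RRAGD (-0.068) and TSC2 (-0.015), in -Asn+Fe against -Asn DDIT4 (0.0027), and in -Asn+Fe against +Asn SESN3 (-0.0095). For widths with a library left out, SESN1 ran from -0.014 to 0.051, RRAGD from -0.017 to 0.067 and TSC2 from -0.0058 to 0.14 in -Asn against +Asn, RRAGD from -0.042 to 0.033 in -Asn+Fe against +Asn, and SESN2 from -0.15 to 0.066, DDIT4 from -0.048 to 0.027 and RRAGD from -0.061 to 0.0041 in -Asn+Fe against -Asn. The cause was not tested.

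The replicate numbers did not pair the libraries: correlations of same-numbered deviations ran from -0.081 to 0.072 for RNA and -0.21 to 0.093 for widths. With the replicate block 5 members were called in -Asn against +Asn, 3 in -Asn+Fe against -Asn and 7 in -Asn+Fe against +Asn, and 10769, 5155 and 11380 genes over all. Member regions called in -Asn against +Asn were 4 with the replicate block, without RRAGC (adjusted p = 0.0544). Library totals shift the median of all genes by 0.206, 0.0481 and 0.255 in -Asn against +Asn, -Asn+Fe against -Asn and -Asn+Fe against +Asn, and the share of calls that are higher was 65.7%, 54.9% and 66.9%, beside 50.7%, 45.4% and 50.8% with TMM. The stricter filter shifts it by 0.118, 0.051 and 0.169. SESN2 and CASTOR1 are limited by their counts, and DEPTOR by its low level.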
